A study of Mus musculus with 6 samples.

Results

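Keratins are the proteins of the intermediate filaments of epithelial cells, and their genes were read here in cortical thymic epithelial cells (cTEC). The family was taken as every protein-coding gene of the counts table whose symbol is Krt followed by a number and at most 1 letter, which gave 53 of the 39179 genes. Keratins come in an acidic type I and a basic type II, and a filament is built only from pairs that hold one protein of each type. The 28 type I genes comprised 27 in a cluster on mouse chromosome 11 (mm10, chr11:99232761-100269871) and Krt18, which lies beside the 25 type II genes on chromosome 15 (chr15:101347444-102032027). Which pair a cell makes follows its layer and its state, and so keratins have long served as labels in the thymus, where Krt8 and Krt18 are used to stain cortical epithelium and Krt5 and Krt14 medullary epithelium. The 53 genes were sorted into 6 simple-epithelial, 3 basal, 11 suprabasal, 4 activation-associated, 16 hair and 9 root sheath keratins, and 4 others.

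RNA was measured in 6 libraries from mice 10 weeks of age that were untreated and carried the Cxcl12::DsRed knock-in allele, in which a red fluorescent protein marks cells that express the chemokine gene Cxcl12. Cells that were CD45-, EpCAM1+, UEA1- and Ly51+, the surface definition of cTEC, were sorted by fluorescence into Cxcl12DsRed- cTEC and Cxcl12DsRed+ cTEC. A library of each subset came from every one of 3 experiments, named A, B and C (n = 3 per subset, described as independent biological replicates). Both subsets carry the reporter allele, so no library here came from mice without it, and how many mice went into a library is not given in the sources used here. Values are given below in the order A, B and C, in CPM, which are counts relative to the scaled library size. Library depth was 34574900 to 51042679 counts in genes.

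The transcript of DsRed itself was at 21.5, 17.6 and 27.8 CPM in the Cxcl12DsRed- libraries and at 860, 1322 and 2059 CPM in the Cxcl12DsRed+ libraries. All 6 libraries held the epithelial and cTEC genes Epcam, Enpep, which encodes Ly51, Psmb11 and Prss16. Of 10 genes of TEC identity, 9 were lower in every Cxcl12DsRed- library than in every Cxcl12DsRed+ library, with summed levels of 683 to 1212 CPM against 5681 to 9863 CPM. The list holds Cxcl12, whose reporter was used for the sort, and Foxn1 with targets that the paper had reported as lower. This count is therefore a description and not a test of TEC identity. The remaining gene, Epcam, was higher in every Cxcl12DsRed- library (179, 184 and 229 CPM against 73.8, 131 and 63.6 CPM). Lists of markers for other cells are given next, and their part in the keratin results was not tested. Of all tested genes, 9.73% were higher and 9.32% lower in every Cxcl12DsRed- library than in every Cxcl12DsRed+ library. All 15 tuft cell markers were higher in every Cxcl12DsRed- library, with summed levels of 3325, 941 and 597 CPM against 45.4, 45.6 and 41.8 CPM, and Il25 was at 0 in all 3 Cxcl12DsRed+ libraries. Of 14 corneocyte markers, genes of cornifying epithelium, 5 were higher in every Cxcl12DsRed- library, and the sums were 569 to 1127 CPM against 229 to 509 CPM with Flg2 and Sprr1b at 0 in all 6 libraries. Of 12 endothelial markers, 11 were lower in every Cxcl12DsRed- library, at 55.7 to 120 CPM in sum against 812 and 819 CPM in the Cxcl12DsRed+ libraries of A and B and 6085 CPM in that of C. Of the other lists, 3 of 10 mTEC markers were higher in every Cxcl12DsRed- library (in sum 4240 to 7427 CPM against 2326 to 9723 CPM), and so was 1 of 8 fibroblast markers, near the share over all genes (in sum 3668 to 4941 CPM against 1087 to 1837 CPM). The mTEC sum was mostly Ccl21a, which overlapped, and the fibroblast sum mostly Dcn, the separated marker. The separated mTEC markers were Cldn4 (294, 281 and 28.7 CPM against 1.97, 2.32 and 0.155 CPM), Spib (310, 64.6 and 38.8 CPM against 2.74, 6.69 and 2.42 CPM) and Cd80 (6.7, 14.9 and 1.82 CPM against 0.0189, 0 and 0 CPM). The other 7 overlapped. None of 10 thymocyte markers were separated between the subsets (57.6 to 106 CPM against 43.1 to 353 CPM).

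Keratin mRNA was abundant in both subsets and was carried by the same few genes. All keratins together reached 16465, 13682 and 9720 CPM in Cxcl12DsRed- cTEC and 18068, 17550 and 7620 CPM in Cxcl12DsRed+ cTEC, or 13289 ± 3389 against 14413 ± 5889 CPM (SD, n = 3). The Cxcl12DsRed+ library of C was the lowest of the 6 and the Cxcl12DsRed- library of C the next lowest, and the subsets overlapped. To set one gene beside another, CPM was divided by transcript length in kilobases (RPKM). On this scale Krt18, Krt8, Krt17, Krt14, Krt5, Krt19 and Krt7 made up 95.2%, 96.5% and 96.5% of the summed keratin level in the Cxcl12DsRed- libraries. In the Cxcl12DsRed+ libraries the same 7 genes made up 99.2%, 99.4% and 99.5%. All other keratins together reached 884, 532 and 358 CPM in Cxcl12DsRed- cTEC and 149, 114 and 43.4 CPM in Cxcl12DsRed+ cTEC, so that on the sum of these minor genes the subsets did not overlap. In bulk libraries such as these, fewer cells with a keratin and less of its RNA per cell cannot be told apart. Type I keratins held 62%, 63.7% and 62.7% of the summed RPKM in Cxcl12DsRed- cTEC and 63.5%, 67.1% and 63.7% in Cxcl12DsRed+ cTEC.

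**Figure D1:**
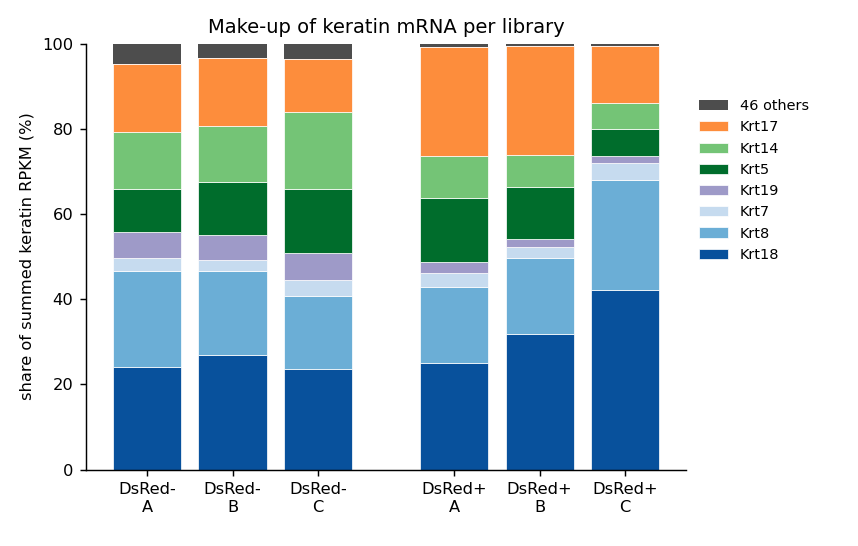
Share of the summed keratin RPKM (vertical axis, percent) that each of the 7 most abundant keratins and the other 46 together took in each of the 6 libraries (bars). The part of the other 46 is wider in the 3 Cxcl12DsRed- libraries, and Krt18 and Krt8 take the largest share, 42.2% and 25.7%, in the Cxcl12DsRed+ library of C.

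Of the 53 keratins, 43 had at least 1 count in some library and 10 had 0 counts in all 6. A total of 27 passed the filter on low counts and were tested together with the rest of the 15576 genes, and the 26 others are described by their counts. In edgeR's quasi-likelihood test at an adjusted p of 0.05, 1 of the 27 was higher in Cxcl12DsRed- cTEC, where 0.449% of all tested genes were, and 0 were lower, where 0.173% of all were. At an unadjusted p of 0.05 the counts were 9 higher and 0 lower, against 7.02% and 4.8% of all tested genes. The likelihood ratio test of edgeR, which is more permissive, called 7 of the 27 higher against 3.53% of all genes and 0 lower against 2.12%, and DESeq2 called 7 higher against 4.68% of all genes and 0 lower against 2.51%. Without a model, 10 of the 27 were higher in every Cxcl12DsRed- library than in every Cxcl12DsRed+ library, while 9.73% of all genes were, and 0 were lower in every one, while 9.32% of all were. The remaining 17 overlapped. The log2 fold change of Cxcl12DsRed- over Cxcl12DsRed+ cTEC had a median of 1.73 over the tested keratins and of 0.02 over all tested genes. Of the 27, 13 reached the filter in all 6 libraries, and Krt4 reached it in Cxcl12DsRed- libraries alone, so that its presence among the tested genes already required a difference. In Cxcl12DsRed+ cTEC, Krt23, Krt71 and Krt79 reached the filter of 0.237 CPM only in A, and Krt76 and Krt78 only in C. Their entry too leaned on their Cxcl12DsRed- reads, so their p-values are a description and the counts above carry this limit. Krt87, which was lower in every Cxcl12DsRed- library, was not tested.

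**Figure D2:**
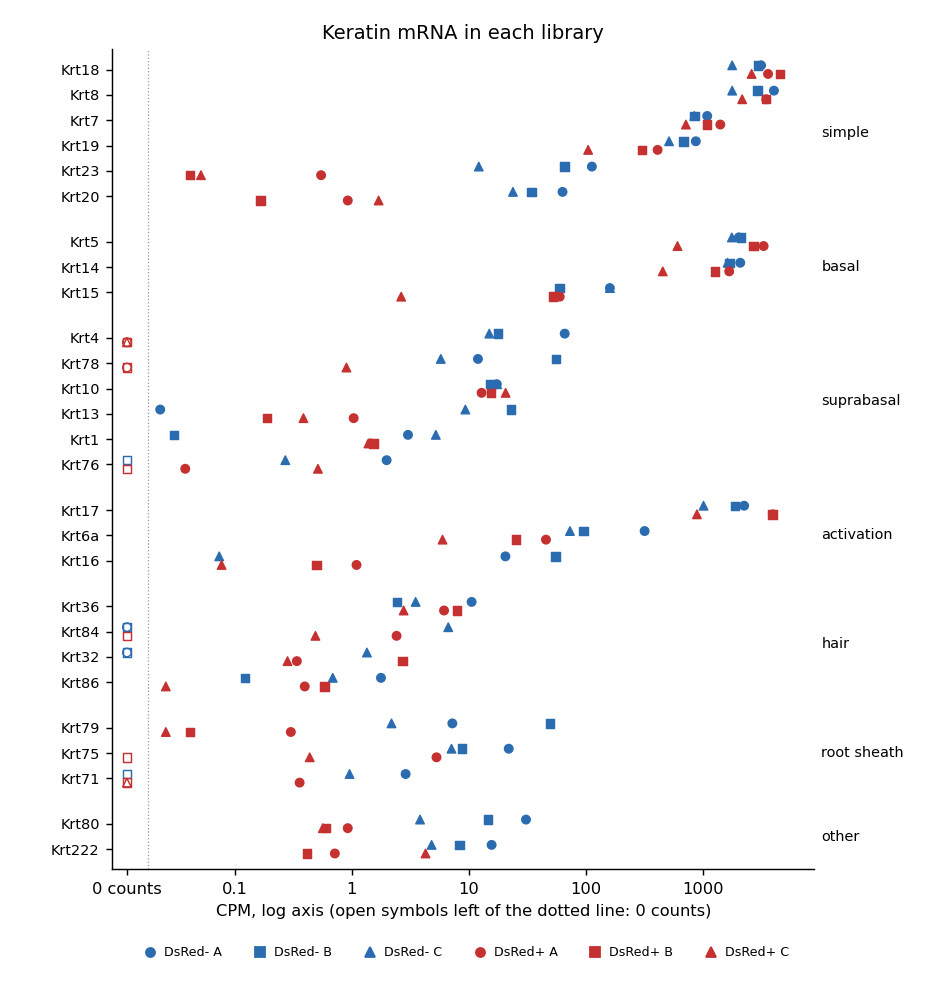
CPM of each of the 27 tested keratins (log axis, 0 counts drawn open at the left) in the 3 Cxcl12DsRed- libraries (blue) and the 3 Cxcl12DsRed+ libraries (red), with a symbol for each experiment and the classes named at the right. Krt18, Krt8, Krt7, Krt5, Krt14 and Krt17 overlap or lie close together in both subsets, and all blue points stand to the right of all red ones for Krt4, Krt20, Krt23, Krt78, Krt79 and Krt80 among others.

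The simple keratins fall into a group of 4 that all libraries held at 105 to 4589 CPM and a pair at under 2 CPM in each Cxcl12DsRed+ library. Krt8 and Krt18, the pair of single-layered epithelia and of the thymic cortex, had the highest mean RPKM in Cxcl12DsRed- cTEC, although Krt14 exceeded Krt8 in the library of C. The type II gene Krt8 was at 4065, 2948 and 1787 CPM in Cxcl12DsRed- cTEC and at 3491, 3495 and 2175 CPM in Cxcl12DsRed+ cTEC. Its partner Krt18 was at 3156, 2963 and 1787 CPM against 3620, 4589 and 2620 CPM. The subsets overlapped for both genes, and their log2 fold changes were -0.06 ± 0.34 (SE) for Krt8, with a 95% interval of -0.87 to 0.75, and -0.45 ± 0.30 for Krt18, with an interval of -1.17 to 0.26. Adjusted p was 0.978 and 0.666. Krt7, a type II keratin of ducts and other simple epithelia, was at 1093, 854 and 847 CPM against 1415, 1085 and 719 CPM and did not pass the test either (log2 fold change -0.20 ± 0.27, interval -0.86 to 0.45, adjusted p 0.876). The intervals reach down to -0.86 or lower for each of these genes, so the tests do not show equal levels.

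Krt19 differed from the other abundant simple keratins in that its libraries did not overlap. It is the shortest keratin, a type I protein with almost no tail, and is found in ducts and in many epithelial progenitors. It was at 874, 683 and 516 CPM in Cxcl12DsRed- cTEC and at 412, 303 and 105 CPM in Cxcl12DsRed+ cTEC, a 2.53-fold ratio of means (691 ± 179 against 273 ± 156 CPM). The higher subset was Cxcl12DsRed- cTEC in each experiment. The log2 fold change was 1.34 ± 0.49 with an interval of 0.19 to 2.49, and it did not pass after adjustment, with an adjusted p of 0.332 in the quasi-likelihood test and 0.134 in the likelihood ratio test.

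Krt23 and Krt20, both type I keratins, were the simple keratins with the widest separation. Krt20 marks intestinal epithelium, the surface cells of the bladder and Merkel cells, and Krt23 is a keratin of glandular and gut-like epithelia. Krt23 was at 113, 66.1 and 12.2 CPM in Cxcl12DsRed- cTEC and at 0.548, 0.0417 and 0.0515 CPM in Cxcl12DsRed+ cTEC. In counts this was 4891, 2172 and 498 reads against 29, 2 and 2 reads, and the ratio of means was 298-fold, or 183-fold without the Cxcl12DsRed- library of A and 1367-fold without the Cxcl12DsRed+ library of A. Krt20 was at 63.4, 34.3 and 23.9 CPM against 0.926, 0.167 and 1.70 CPM, a 43.5-fold ratio that was 74.2-fold without the Cxcl12DsRed+ library of C. Every Cxcl12DsRed- library lay above every Cxcl12DsRed+ library for both genes. Within Cxcl12DsRed- cTEC both were highest in A and lowest in C, as were the sums of the tuft cell and of the corneocyte markers. The abundant Krt8, Krt18, Krt7 and Krt19 and the summed keratin level had the same order. The quasi-likelihood test left both just above the threshold, with log2 fold changes of 8.15 ± 1.38 for Krt23 (adjusted p 0.0644) and 5.45 ± 0.93 for Krt20 (adjusted p 0.0674). The likelihood ratio test gave adjusted p of 1.16e-06 and 2.1e-06, and DESeq2 gave 1.27e-13 and 6.41e-10. A quasi-likelihood test that blocked on experiment gave 0.0387 for Krt23 and 0.124 for Krt20, and without the Cxcl12DsRed+ library of C the adjusted p was 0.14 for Krt23 and 0.101 for Krt20.

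The basal keratins did not pass the test, and their values turned on experiment C. Krt5 and Krt14 are the type II and type I pair of the basal layer of stratified epithelia. Krt5 was at 2036, 2121 and 1776 CPM in Cxcl12DsRed- cTEC and at 3317, 2722 and 609 CPM in Cxcl12DsRed+ cTEC. Krt14 was at 2095, 1699 and 1632 CPM against 1685, 1277 and 456 CPM. Levels were close to each other in Cxcl12DsRed- cTEC, with SDs of 180 and 250 CPM, and in Cxcl12DsRed+ cTEC the library of C lay far below those of A and B, with SDs of 1423 and 626 CPM. The log2 ratio of Krt5 within experiments was -0.70, -0.36 and 1.54, a change of sign between A and B and C, while that of Krt14 was 0.31, 0.41 and 1.84. The log2 fold changes over all libraries were -0.16 ± 0.55 for Krt5 (interval -1.46 to 1.13, adjusted p 0.962) and 0.67 ± 0.44 for Krt14 (interval -0.38 to 1.72, adjusted p 0.665).

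Krt15, a type I keratin of basal cells and of the stem cells of the hair follicle bulge, was at 161, 59.7 and 161 CPM in Cxcl12DsRed- cTEC and at 60.0, 52.7 and 2.65 CPM in Cxcl12DsRed+ cTEC. The subsets overlapped between the Cxcl12DsRed- library of B and the Cxcl12DsRed+ library of A. Its log2 ratio was 1.42, 0.18 and 5.93 within A, B and C, and its log2 fold change was 1.73 ± 0.98 (interval -0.59 to 4.04, adjusted p 0.593). The Cxcl12DsRed+ library of C, which was the lowest library for Krt5, Krt14, Krt15, Krt17 and Krt19, was also the library with the high endothelial sum. There Krt18 and Krt8 held 42.2% and 25.7% of keratin RPKM, above their shares in every other library. Without that library the log2 fold change was -0.64 for Krt5 (adjusted p 0.259), 0.26 for Krt14 (0.863), 1.15 for Krt15 (0.496), -1.25 for Krt17 (0.227) and 0.92 for Krt19 (0.296), each with the sign it had over all libraries, and none passed. That fit called 1 of all tested genes higher and 0 lower.

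**Figure D3:**
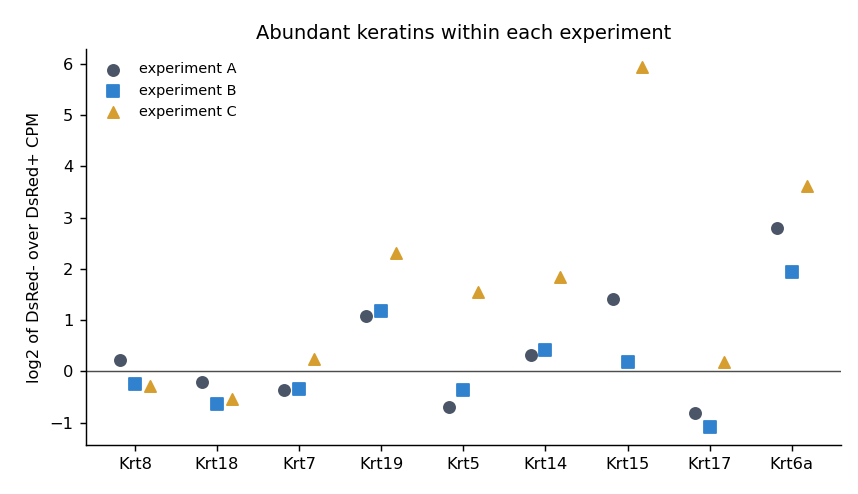
Log2 ratio of Cxcl12DsRed- over Cxcl12DsRed+ CPM (vertical axis) within experiments A, B and C (symbols) for 9 abundant keratins; the line is at 0, equal levels. Krt19, Krt14, Krt15 and Krt6a lie above 0 in all 3 experiments, and Krt5 lies at -0.70 and -0.36 in A and B and at 1.54 in C.

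Among the suprabasal keratins, which replace the basal pair as cells leave the basal layer, 1 of the 6 tested genes, Krt4, passed the test, and it had entered the test through its Cxcl12DsRed- reads alone. Its p-values are therefore given as a description. Krt4, the type II keratin of the oesophagus and other moist stratified linings, was at 66.2, 17.9 and 15 CPM in Cxcl12DsRed- cTEC, from 2867, 587 and 610 reads. All 3 Cxcl12DsRed+ libraries had 0 reads. Against a floor of 3 counts in each of those libraries, Krt4 was at least 504-fold higher in Cxcl12DsRed- cTEC, and at least 251-fold without the Cxcl12DsRed- library of A, which held most of its reads. Its adjusted p was 0.0461 in the quasi-likelihood test, 2.87e-15 in the likelihood ratio test and 5.83e-17 in DESeq2. With a block on experiment it was 0.101, and the range over all alternatives was 5.83e-17 to 0.343. Its fitted log2 fold change of 13.46 depends on the prior count and is not a bound. Leaving out any 1 of the 6 libraries ended the call of Krt4, and without the Cxcl12DsRed+ library of C its adjusted p was 0.0885. Most of these fits called 0 or 1 of all tested genes higher, so there the loss was not particular to Krt4. The exception was the fit without the Cxcl12DsRed- library of C, which called 112 genes higher and gave Krt4 an adjusted p of 0.0604.

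Krt13, the type I partner of Krt4, did not follow it library by library. It was at 0.0231, 22.9 and 9.37 CPM in Cxcl12DsRed- cTEC and at 1.04, 0.188 and 0.387 CPM in Cxcl12DsRed+ cTEC, so that the library with the most Krt4 held almost no Krt13. The difference did not pass (log2 fold change 4.31 ± 1.89, adjusted p 0.444). Krt78, a type II keratin of the upper layers, was at 12.0, 55.6 and 5.78 CPM against 0, 0 and 0.902 CPM. Every Cxcl12DsRed- library was above every Cxcl12DsRed+ library, but the log2 fold change of 6.36 ± 2.12 did not pass (adjusted p 0.282). Krt13, Krt78, Krt16 and Krt79 were each highest in the Cxcl12DsRed- library of B, while the corneocyte sum was highest in A, at 1127, 696 and 569 CPM. Dsc3, which overlapped between the subsets, held much of that sum (368, 314 and 440 CPM). Single corneocyte markers differed in their highest Cxcl12DsRed- library. It was B for Cnfn, Lypd3 and Grhl3, C for Dsc3, and A for the others that had reads in this subset.

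The epidermal pair of cells that have begun to cornify, Krt1 and Krt10, was not separated between the subsets. Krt10 was at 17.4, 15.4 and 17.5 CPM against 12.9, 15.5 and 20.7 CPM (log2 fold change 0.04 ± 0.37, interval -0.85 to 0.92, adjusted p 0.989). Krt1 was at 3.03, 0.0304 and 5.24 CPM against 1.46, 1.54 and 1.39 CPM (log2 fold change 0.92 ± 1.43, adjusted p 0.905). Krt10 stayed within 12.9 to 20.7 CPM over all 6 libraries, and the level of Krt1 in Cxcl12DsRed- cTEC ranged from near 0 to above every Cxcl12DsRed+ library. Krt76, a keratin of the palate, was at 1.99, 0 and 0.271 CPM against 0.0378, 0 and 0.515 CPM and did not pass (adjusted p 0.837). Of the 5 suprabasal keratins that were not tested, Krt77 had 1, 239 and 39 reads in Cxcl12DsRed- cTEC and 7, 1 and 1 reads in Cxcl12DsRed+ cTEC. Krt9, the keratin of palms and soles, had 16 reads, all in the Cxcl12DsRed- library of B, and Krt12, that of the cornea, had 10, all in the Cxcl12DsRed+ library of A. Krt2 and Krt24 had 0 reads in all libraries.

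The activation-associated keratins, which epidermal cells switch on after injury, held 1 abundant gene and 2 that lay mostly in Cxcl12DsRed- cTEC. Krt17 was the third keratin by mean RPKM in Cxcl12DsRed- cTEC and the second in Cxcl12DsRed+ cTEC. This type I gene was at 2261, 1882 and 1017 CPM against 3979, 3966 and 893 CPM. It was lower in Cxcl12DsRed- cTEC in A and B (log2 ratios -0.82 and -1.08) and not in C (0.19), and the difference did not pass (log2 fold change -0.78 ± 0.58, interval -2.14 to 0.59, adjusted p 0.718). Krt6a, a type II partner of Krt16 and Krt17, was at 319, 96.1 and 73.4 CPM in Cxcl12DsRed- cTEC and at 45.8, 25.3 and 5.98 CPM in Cxcl12DsRed+ cTEC, without overlap and with a 6.34-fold ratio of means, which was 3.3-fold without the Cxcl12DsRed- library and 10.4-fold without the Cxcl12DsRed+ library of A. Its log2 fold change was 2.66 ± 0.85 (interval 0.64 to 4.69), with an adjusted p of 0.265 in the quasi-likelihood test, 0.0318 in the likelihood ratio test and 0.00691 in DESeq2. Krt16 was at 20.6, 55.0 and 0.0738 CPM against 1.10, 0.501 and 0.0773 CPM, so that experiments A and B differed by 18.8-fold and 110-fold and experiment C did not (0.954-fold). Its adjusted p was 0.330 in the quasi-likelihood test and 0.0461 in the likelihood ratio test.

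Krt6b had 575, 6 and 0 reads in Cxcl12DsRed- cTEC and 5, 15 and 0 in Cxcl12DsRed+ cTEC and was not tested. It is a near copy of Krt6a: the coding sequences aligned over 1662 positions with 97.6% identical bases, and 51.2% of the ungapped aligned stretches of 75 bases held no difference. Reads that lie wholly within such stretches cannot be given to either gene, so the levels of both are uncertain. The length of 75 bases was chosen for the search. The 75 coding bases in which they differ most, bases 802 to 876 of either coding sequence (GENCODE M21 transcripts), are shown to let the genes be told apart, with the 12 differing bases in capitals.
Krt6a: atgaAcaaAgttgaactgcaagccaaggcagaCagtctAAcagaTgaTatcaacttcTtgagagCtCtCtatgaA
Krt6b: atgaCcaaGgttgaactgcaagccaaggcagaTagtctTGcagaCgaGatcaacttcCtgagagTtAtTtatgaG
Over whole transcripts, 56% of the 75-base stretches of Krt6a and 39.6% of those of Krt6b occurred in another annotated gene. The shares with each other were 36.2% of the stretches of Krt6a and 36.9% of those of Krt6b. For Krt86, Krt16 and Krt8 the share found in another gene was 33.5%, 28.9% and 23.5%, for Krt8 mostly in the pseudogene Krt8-ps. Krt4, Krt7, Krt13, Krt15, Krt17, Krt18, Krt19, Krt20, Krt23, Krt78 and Krt79 shared none.

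Hair keratins, which build the hard fibre of hair and nail, were at 10.6 CPM or less in every library. Of 16 genes, 13 had a read, 4 were tested, and 0 rose or fell. Krt36 was at 10.6, 2.43 and 3.52 CPM in Cxcl12DsRed- cTEC and at 6.16, 7.93 and 2.78 CPM in Cxcl12DsRed+ cTEC (log2 fold change -0.03, adjusted p 0.996), and it was the only hair keratin above 2 CPM in all 6 libraries. Krt32 was at 0, 0 and 1.35 CPM against 0.340, 2.71 and 0.283 CPM (adjusted p 0.913). Krt84 was at 0, 0 and 6.69 CPM against 2.42, 0 and 0.490 CPM (adjusted p 0.945). Krt86 was at 1.78, 0.122 and 0.689 CPM against 0.397, 0.584 and 0.0258 CPM (adjusted p 0.830). The subsets overlapped for all 4 genes.

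Several untested hair keratins were read mostly in a single library. Krt34 had 262 reads, Krt33b 146 and Krt81 145 in the Cxcl12DsRed- library of B, and each had 0 or 1 read in the other 2 Cxcl12DsRed- libraries. Krt83 went the other way, with 1, 4 and 1 reads in Cxcl12DsRed- cTEC and 48, 26 and 3 in Cxcl12DsRed+ cTEC, as did Krt87, with 2, 1 and 1 against 11, 23 and 2. Krt31 had 0 reads in Cxcl12DsRed- cTEC and 26, 7 and 0 in Cxcl12DsRed+ cTEC, and Krt33a had 0, 0 and 40 against 21, 3 and 0. These are paralogs with much shared sequence, such as 35.5% of the 75-base stretches of Krt81 and 24.7% of those of Krt34. Reads that lie wholly within such stretches cannot be given to a single gene, so their counts are uncertain. Krt88 had 12 reads, all in the Cxcl12DsRed- library of C, Krt82 had 1 read, and Krt35, Krt39 and Krt40 had 0.

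Of the 9 root sheath keratins, which line the hair follicle, 3 were tested and 0 passed the quasi-likelihood test. Krt79, a type II gene of the cells that open the hair canal, was at 7.25, 49.6 and 2.19 CPM in Cxcl12DsRed- cTEC and at 0.302, 0.0417 and 0.0258 CPM in Cxcl12DsRed+ cTEC, a 160-fold ratio of means. Without the Cxcl12DsRed- library of B, which held most of its reads, the ratio was 38.3-fold, and without the Cxcl12DsRed+ library of A it was 583-fold. Its libraries did not overlap, and its log2 fold change was 7.25 ± 1.69, with an adjusted p of 0.116 in the quasi-likelihood test, 0.00053 in the likelihood ratio test and 6.48e-07 in DESeq2. Krt75, of the companion layer of the follicle, was at 22, 8.73 and 7.13 CPM against 5.31, 0 and 0.438 CPM, also without overlap, and did not pass (2.72 ± 1.77 on the log2 scale, adjusted p 0.657). Krt71, of the inner root sheath, was at 2.89, 0 and 0.959 CPM against 0.359, 0 and 0 CPM (adjusted p 0.704). Krt72, also of the inner root sheath, was the keratin with the most reads in Cxcl12DsRed+ cTEC among those with none in Cxcl12DsRed- cTEC, with 0 reads in all 3 Cxcl12DsRed- libraries and 307, 173 and 0 in Cxcl12DsRed+ cTEC. Against a floor of 3 counts in each Cxcl12DsRed- library it was at least 40.2-fold lower there, but the subsets overlapped at 0 in experiment C and it was not tested. Krt25, Krt26, Krt27, Krt28 and Krt73 had 0 reads in all 6 libraries.

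Of the 4 keratins outside these classes, Krt80 and Krt222 were tested, and both were higher in every Cxcl12DsRed- library. Krt80, a type II keratin near cell junctions, was at 30.9, 14.6 and 3.84 CPM against 0.926, 0.605 and 0.567 CPM, a 23.5-fold ratio of means that was 13.2-fold without the Cxcl12DsRed- library of A. Its log2 fold change was 4.55 ± 0.93, with an adjusted p of 0.0923 in the quasi-likelihood test, 0.000406 in the likelihood ratio test and 3.29e-06 in DESeq2. Krt222, a keratin-like type I gene, was at 15.7, 8.34 and 4.82 CPM against 0.718, 0.417 and 4.28 CPM (2.42 ± 1.10 on the log2 scale, adjusted p 0.469). Krt42 had 93 reads in the Cxcl12DsRed- library of A and 1 in the Cxcl12DsRed+ library of A, and Krt90 had 1 read in all.

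**Figure D4:**
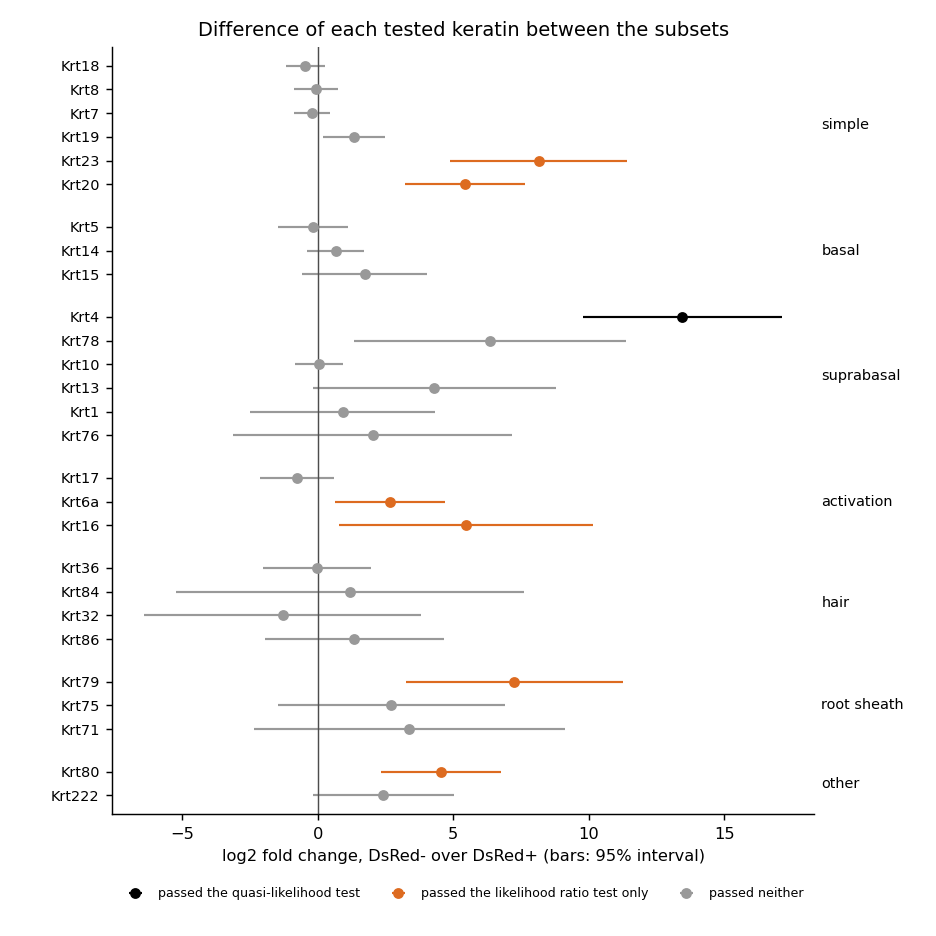
Log2 fold change of Cxcl12DsRed- over Cxcl12DsRed+ cTEC (horizontal axis) with its 95% interval (bars) for the 27 tested keratins, coloured by the test they passed at an adjusted p of 0.05. Krt4 alone passed the quasi-likelihood test (its fitted value rests on 0 reads in Cxcl12DsRed+ cTEC), and Krt23, Krt20, Krt79, Krt80, Krt16 and Krt6a passed the likelihood ratio test.

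Keratins with wide separation lay in both gene clusters. The 120 bases upstream of the start are given for Krt23, Krt20, Krt78, Krt79 and Krt13, which had a ratio of means of 20-fold or more. They are also given for Krt5 and Krt10, with ratios of 0.892 and 1.02. The subsets overlapped for Krt13, Krt5 and Krt10. Sequences are from RefSeq (GRCm38.p6), all on the minus strand, and are printed from 5′ to 3′. Not every keratin with a ratio of 20-fold or more is shown. Among tested genes Krt16, Krt80 and, by its lower bound, Krt4 are not. Among untested genes Krt34, Krt81, Krt42, Krt77 and Krt6b had such a ratio and are not shown either. Positions count from the RefSeq start, and the last 17 bases shown for Krt23 lie in an exon of the GENCODE annotation, whose start is farther upstream. Capitals mark ATAAA on the gene's strand with its first base at -40 to -20 from the start, and CCACCC or its complement on either strand.
Krt23, chr11:99493121-99493240: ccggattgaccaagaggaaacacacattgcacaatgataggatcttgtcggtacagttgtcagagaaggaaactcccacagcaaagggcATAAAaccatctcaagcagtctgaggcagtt
Krt20, chr11:99438154-99438273: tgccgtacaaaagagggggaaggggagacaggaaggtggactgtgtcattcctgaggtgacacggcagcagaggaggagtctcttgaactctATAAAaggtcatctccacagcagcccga
Krt78, chr15:101954288-101954407: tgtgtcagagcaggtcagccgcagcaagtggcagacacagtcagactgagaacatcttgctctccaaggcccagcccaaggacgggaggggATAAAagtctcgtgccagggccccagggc
Krt79, chr15:101940325-101940444: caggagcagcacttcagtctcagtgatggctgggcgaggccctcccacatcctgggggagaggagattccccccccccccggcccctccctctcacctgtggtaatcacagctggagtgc
Krt13, chr11:100121567-100121686: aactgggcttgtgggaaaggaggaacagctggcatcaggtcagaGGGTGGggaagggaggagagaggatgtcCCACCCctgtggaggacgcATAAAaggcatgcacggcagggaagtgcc
Krt5, chr15:101712906-101713025: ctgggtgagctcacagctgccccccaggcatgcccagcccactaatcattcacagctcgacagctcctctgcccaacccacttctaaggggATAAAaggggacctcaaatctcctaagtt
Krt10, chr11:99389365-99389484: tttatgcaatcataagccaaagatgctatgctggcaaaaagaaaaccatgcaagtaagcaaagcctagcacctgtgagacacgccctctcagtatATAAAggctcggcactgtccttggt
Of the 53 keratins, 36 had a promoter in the RefSeq table, as 37 entries. The ATAAA element, chosen after these sequences were seen, stood in the window of 20 of the 37 and of 4.25% of all 32851 promoters. It began at -31 in Krt23, at -28 in Krt20, at -29 in Krt78, Krt13 and Krt5 and at -25 in Krt10, and was not matched in Krt79. It thus occurred in shown genes that were separated between the subsets and in shown genes that were not. Searched on both strands of the same 120 bases, CCACCC was in 7 of the 37 (16.5% of all promoters), the GC box GGGCGG in 2 (26.5% of all) and the AP-1 site TGANTCA in 1 (3.41% of all), and no match of one motif overlapped a match of another in the stretches shown.

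Ratios of 2 keratins within a library do not depend on how libraries are scaled, and several differed between the subsets in every library. Among partner genes, Krt14 over Krt5 in RPKM was 1.33, 1.04 and 1.19 in Cxcl12DsRed- cTEC and 0.657, 0.607 and 0.968 in Cxcl12DsRed+ cTEC. Krt19 over Krt7 was 2.08, 2.08 and 1.58 against 0.757, 0.724 and 0.378. Krt18 over Krt8 was 1.06, 1.37 and 1.36 against 1.41, 1.79 and 1.64. The first and second of these ratios were higher in every Cxcl12DsRed- library and the third was lower, where the nearest libraries of the 2 subsets were at 1.37 and 1.41. Krt17 over Krt14 was 1.18, 1.21 and 0.682 against 2.59, 3.40 and 2.14, and Krt19 over Krt18 was 0.253, 0.210 and 0.263 against 0.104, 0.0601 and 0.0364. Krt14 over Krt18, a basal gene over a simple one, was 0.562, 0.485 and 0.773 against 0.394, 0.235 and 0.147. In RPKM, the type I level was above the type II level in the 3 partner pairs within Cxcl12DsRed- cTEC. In Cxcl12DsRed+ cTEC Krt14 was below Krt5 and Krt19 below Krt7. The side of 1 on which a ratio lies depends on the transcript lengths used, while the separation of the subsets does not. In CPM, without division by length, Krt19 was below Krt7 in every library of both subsets. Krt5 over Krt8 overlapped (0.446, 0.641 and 0.886 against 0.847, 0.694 and 0.250), as did Krt17 over Krt18 (0.664, 0.588 and 0.527 against 1.02, 0.801 and 0.316) and Krt7 over Krt8 (0.129, 0.138 and 0.227 against 0.194, 0.149 and 0.158). With 3 libraries per subset, an exact two-sided permutation test of a single value cannot give a p below 0.1. These ratios share genes and so are not independent, and the share of all gene pairs that separate in this way was not computed.

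**Figure D5:**
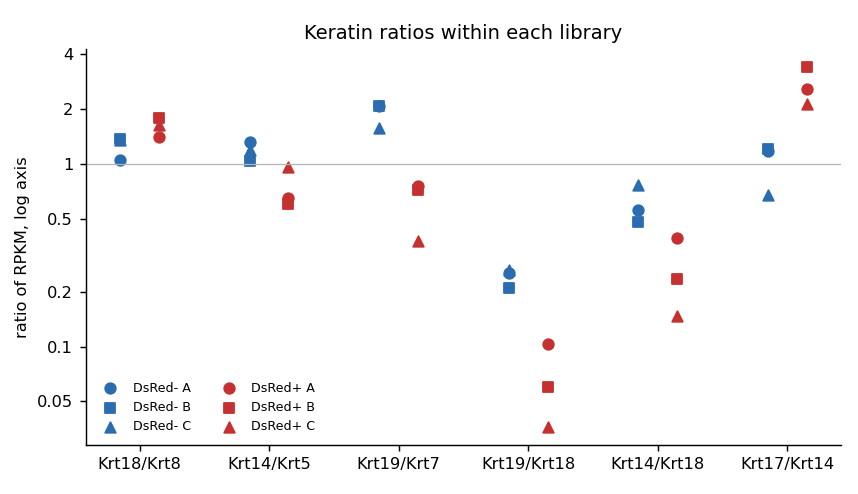
Ratio of the RPKM of 2 keratins (vertical axis, log scale) in each Cxcl12DsRed- library (blue) and each Cxcl12DsRed+ library (red), with a symbol for each experiment; the line is at 1. Only ratios in which the subsets do not overlap are drawn. Krt5 over Krt8, Krt17 over Krt18 and Krt7 over Krt8, which overlap, are left out. Krt19 over Krt7 is 1.58 to 2.08 in Cxcl12DsRed- cTEC and 0.378 to 0.757 in Cxcl12DsRed+ cTEC.

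Of the 16 other intermediate filament genes listed, 12 were tested, and 0 rose and 1 fell in Cxcl12DsRed- cTEC, where the quasi-likelihood test called 0.449% and 0.173% of all genes. Synm, which encodes the large filament protein synemin, was at 65.8, 56.3 and 46.6 CPM in Cxcl12DsRed- cTEC and at 242, 260 and 145 CPM in Cxcl12DsRed+ cTEC (log2 fold change -1.94 ± 0.28, adjusted p 0.0461 in the quasi-likelihood test and 0.0551 where it blocked on experiment). Nes, the nestin gene of progenitor and endothelial cells, was at 0.993, 0.183 and 2.93 CPM against 10.3, 8.97 and 43.2 CPM, without overlap. Its adjusted p was 0.225 in the quasi-likelihood test and 0.02 in the likelihood ratio test. The likelihood ratio test called 2 of the 12 lower, Synm and Nes, against 2.12% of all genes, and 0 higher, against 3.53%. The filament genes of mesenchyme and muscle, Vim and Des, did not pass (adjusted p 0.473 and 0.541). Vim, Des and Nes were highest in the Cxcl12DsRed+ library of C, at 557, 179 and 43.2 CPM, where the endothelial sum was highest.

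Of 14 genes that link keratin filaments to junctions, 0 passed the quasi-likelihood test and 1 passed the likelihood ratio test, against 3.53% of all genes in the same direction. Ppl, which encodes the plakin periplakin of the cornified envelope, was at 55.4, 95 and 47.8 CPM against 13.6, 12.6 and 6.08 CPM (log2 fold change 2.62 ± 0.44, adjusted p 0.0640 in the quasi-likelihood test). The next 3 by p were its partner Evpl at 2.22 ± 1.27 (adjusted p 0.601), the desmosome gene Pkp2 at 2.72 ± 1.60 (adjusted p 0.612) and the hemidesmosome integrin Itga6 at 0.26 ± 0.29 (adjusted p 0.839).

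Of 21 transcription factors of keratinised epithelia, 19 were tested, 0 passed the quasi-likelihood test, and 5 higher and 1 lower passed the likelihood ratio test, which called 3.53% of all genes higher and 2.12% lower. The lower one was Foxn1, the central factor of thymic epithelium, at 83, 135 and 53.8 CPM against 291, 276 and 156 CPM (log2 fold change -1.41 ± 0.40, adjusted p 0.189 in the quasi-likelihood test and 0.0318 in the likelihood ratio test). The 4 with the smallest p were higher in every Cxcl12DsRed- library. Elf3, an epithelial ETS factor, was at 949, 376 and 153 CPM against 40.9, 41.7 and 25.3 CPM (log2 fold change 3.78 ± 0.68, adjusted p 0.0709). Its relative Ehf was at 267, 113 and 46.4 CPM against 4.52, 4.59 and 0.490 CPM (5.47 ± 1.05 on the log2 scale, adjusted p 0.0827, and 0.0387 with a block on experiment). Klf5 and Grhl1, factors of epithelial growth and differentiation, had log2 fold changes of 2.33 ± 0.58 and 1.78 ± 0.46 (adjusted p 0.134 and 0.149). Within Cxcl12DsRed- cTEC, Elf3 and Ehf were highest in A and lowest in C, as were Krt4, Krt23, Krt20, Krt80, Krt6a, the summed keratin level and the sums of the tuft cell and the corneocyte markers. The same order held for Krt8, Krt18, Krt7, Krt14 and Krt17, whose subsets overlapped, and for Krt19, Krt75 and Krt222. It was thus not particular to genes that were higher in Cxcl12DsRed- cTEC.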

How the data were processed

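The authors deposited unadjusted whole-number counts per gene, made with HTSeq in intersection-nonempty mode after trimming (Trimmomatic 0.36) and alignment to mm10 (STAR 2.7.3a). RNA was polyadenylated and amplified with the SMARTer Ultra Low Input kit. No source used here gives the annotation release or the strand setting. Spike-in names, counting summaries and the DsRed entry entered neither library sizes nor tests. Symbols, coordinates and lengths came from GENCODE M21 (GRCm38), which held 37693 of the 39179 gene IDs.

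Counts were analysed with edgeR 4.0.16 (filterByExpr with a minimum count of 10, TMM, prior count 0.125, quasi-likelihood test, Benjamini-Hochberg over 15576 genes, threshold 0.05). The same fit was run on simulated counts with known changes. These used dispersions estimated from the same libraries and held no experiment effect, so they cannot show how well the test suits these data. The SE is the log2 fold change over the root of F. CPM used TMM-scaled library sizes, and RPKM the longest protein-coding transcript. Alternatives were edgeR's likelihood ratio test, DESeq2 1.42.0, limma 3.58.1 voom, an experiment block, RLE factors, library totals, other filters and leaving out libraries or experiments. The main test held no block on experiment. For the block and the ratios within experiments, libraries of one experiment were taken as pairs, from the labels. Deviations from the subset means correlated at 0.0106 (A), 0.0778 (B) and 0.0716 (C), and between experiments at -0.0948 to 0.00374. Members, gene lists and marker lists were chosen with earlier results of these data known. Every keratin was described. From each pathway list the members that passed, or the 4 with the smallest p, were named. Floors cover counting error only, since amplified reads are not independent molecules. Plots were drawn with matplotlib 3.10.9.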

Additional observations from a re-analysis of the deposited data

How the results depend on the processing

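In the quasi-likelihood test 70 genes were higher and 27 lower in Cxcl12DsRed- cTEC. DESeq2 called 704 and 377, the likelihood ratio test 550 and 330, voom 3 and 1, and the test without a filter 122 and 46. Leaving out a library gave 0 to 112 higher and 0 to 19 lower, and leaving out an experiment 0 to 54 and 0 to 10. Of the keratins, 1 was called higher; DESeq2 and the likelihood ratio test called 7 each, voom 0 and the test without a filter 3 (Krt4, Krt23 and Krt20), and leave-outs called 0 to 1. No keratin was called lower under any of these alternatives. With the replicate block of experiments 52 genes were higher and 21 lower, 40 of them shared with the 97, and 1 keratin, Krt23, was called in place of Krt4 (adjusted p 0.101). Without the Cxcl12DsRed- library of C, Krt23 was called and Krt4 was not. No other keratin call changed with the block.

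Log2 fold changes that changed sign belonged to keratins that passed no test, and the cause was not tested. With the block, Krt84 was at -0.943, Krt1 at -0.0155 and Krt5 at 0.135. With voom they were at -1.12, -0.538 and 0.131. Krt10 was at -0.00325 with library totals and at -0.00188 without a filter. Leaving out a library gave -0.144 to 0.206 for Krt10, -0.94 to 0.325 for Krt36, -0.456 to 0.00705 for Krt7, -8.39 to 3.18 for Krt84, -8.59 to 0.557 for Krt32, -0.399 to 0.2 for Krt8, -0.643 to 0.206 for Krt5 and -0.41 to 5.07 for Krt76. Leaving out an experiment gave -0.164 to 0.181 for Krt10, -0.876 to 0.65 for Krt36, -8.76 to 3.76 for Krt84, -9.09 to 1.14 for Krt32, -0.298 to 0.0452 for Krt8, -0.564 to 0.19 for Krt5 and -0.896 to 5.48 for Krt76.

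Keratins under about 1 CPM rest on few reads, and with 3 libraries per subset 1 library decides several values. Shares of counts in place of scaled CPM, and exon unions in place of transcripts, moved the summed level and the type I share by less than 1 SD.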
